A study of Mus musculus with 6 samples.

Results

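Mesothelial nuclei were sought in 6 single-nucleus RNA sequencing libraries of fat from female mice of the strain C57BL/6J. Both the young group (2 months) and an old group (24 months) of inguinal subcutaneous fat (SAT) had 2 libraries, and so did gonadal visceral fat (VAT) of old mice (24 months). In the design text the older age is 26 months, no genotype or treatment distinguishes the groups, and young VAT was not analysed here. The labels name the cell type of every library as adipocytes, but each library is a suspension of nuclei of whole tissue, and 2 libraries per group are the only replicates. A nucleus was selected when it passed the quality filters (over 500 genes, over 1000 unique molecular identifiers or UMIs, under 15% mitochondrial UMIs), held at least 4 UMIs of Upk3b, Msln, Muc16, Wt1, Bnc1, Lrrn4 and Upk1b from at least 2 of these 7 genes, and held at most 1 UMI of Ptprc, Skap1, Ptprb, Epcam, Plin1 and Lhcgr, which mark immune, endothelial, epithelial, fat and steroid-making ovarian cells. This rule found 1286 of 27074 filtered nuclei (4.75%). Because the nuclei were chosen on these 13 genes, the levels of those genes, and any contrast of the selected nuclei with the rest, are descriptions without a test.

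Mesothelium is the flat sheet of cells that lines the body cavities and covers the organs within them. Gonadal fat hangs in the peritoneal cavity and has such a cover, whereas inguinal fat lies under the skin and has none. Mesothelial cells combine features of epithelium, such as simple keratins and junction proteins, with features of mesenchyme, and they carry transcription factors of the mesoderm such as Wt1. The ovarian surface, which lies next to the gonadal fat pad, is covered by a continuation of the same lining and shares many of its markers.

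The selected nuclei came almost entirely from VAT. VAT replicate 1 held 187 among 4434 nuclei, which was 4.22% (exact Clopper-Pearson 95% interval 3.64 to 4.85%). VAT replicate 2 held 1097 among 5070, which was 21.6% (20.5 to 22.8%), so that this library supplied 85.3% of all selected nuclei. In SAT, replicate 1 at 2 months held 1 among 4595 (0.0218%) and replicate 1 at 24 months held 1 among 2490 (0.0402%). The other SAT libraries held 0 among 5776 nuclei at 2 months and 0 among 4709 at 24 months, which allows shares of up to 0.0519% and 0.0637% by a limit of 3 counts over the nuclei, or 0.0638% and 0.0783% by the exact interval. At 24 months the mean share was 12.9% ± 12.3 in VAT and 0.0201% ± 0.0284 in SAT (SD, n = 2 libraries each), a difference of 12.9 percentage points. All VAT values lay above all SAT values, and the exact permutation test over libraries, two-sided, gave p = 0.333, the smallest that 2 against 2 libraries allow. Paired by number the p was 0.5, the smallest that 2 pairs allow. Without VAT replicate 2 the difference was 4.20 points. With a mitochondrial limit of 5% in place of 15% the share was 9.37% in VAT replicate 2 and the difference was 6.39 points. In SAT the mean share was 0.0109% ± 0.0154 at 2 months (SD, n = 2), the groups overlapped, and the exact permutation p for the difference between ages was 1.0. A difference with age was therefore not detectable in SAT, and VAT had no young libraries here. These intervals and limits cover counting error only. Shares are of sequenced nuclei, so that fewer nuclei of other types and more nuclei of this type cannot be told apart.

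**Figure D1:**
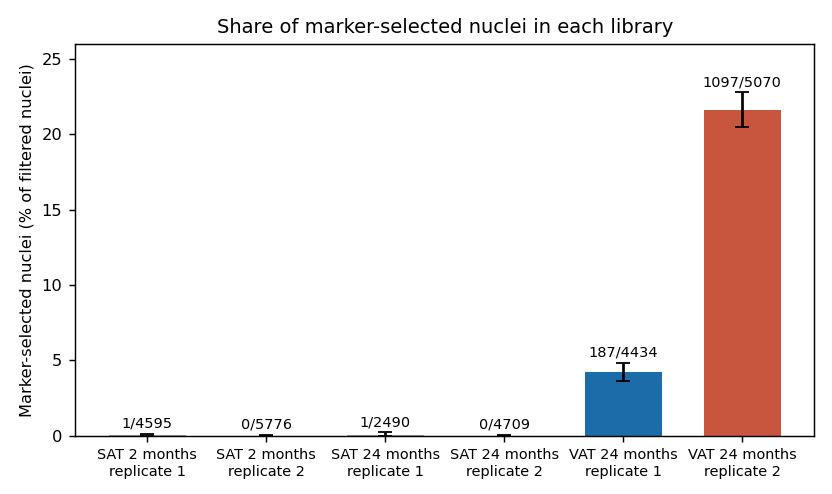
The share of filtered nuclei that met the marker rule (y axis, %) in each of the 6 libraries (x axis), with exact 95% binomial intervals as error bars and the counts above the bars. The 4 SAT libraries held 0 or 1 such nucleus, and the VAT libraries held 187 and 1097.

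The levels of the selecting genes themselves are given as a description, since the rule used the same 7 genes. Together they gave 7.84 to 16.5 CPM (counts scaled to a total of 1000000 UMIs) over the filtered nuclei of the SAT libraries, against 246 CPM in VAT replicate 1 and 1699 CPM in VAT replicate 2. At least 1 such UMI was found in 1.49 to 2.69% of SAT nuclei, in 17.7% of the nuclei of VAT replicate 1 and in 54.5% of those of VAT replicate 2. In VAT replicate 2 a UMI of these genes was thus common outside the selected nuclei too. Among nuclei with at least 2 UMIs of the immune genes Ptprc and Skap1, which should lack mesothelial RNA, Upk1b was found in 5.12% of 898 nuclei of that library after each nucleus had been thinned to 1000 UMIs, and Wt1 in 6.57%. These are background levels against which 72.7% for Upk1b and 62.4% for Wt1 in the selected nuclei are to be read. The median depth was 1387.5 UMIs in these immune nuclei and 2083 in the selected nuclei before thinning.

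The VAT libraries differed in ways that touch every result. Total depth was 13235130 UMIs for replicate 1 and 16226690 for replicate 2. The selected nuclei had a median of 1641 UMIs and 988 genes in replicate 1, and of 2083 UMIs and 1218 genes in replicate 2. Their median mitochondrial share was 2.82% and 8.29%, above the 0.732% and 4.01% of the other nuclei of the same libraries. A list of 12 ovary genes (Lhx9, Emx2, Nr5a1, Amhr2, Foxl2, Fshr, Inha, Cyp11a1, Star, Lhcgr, Pax8, Ovgp1) gave 27.9 to 47.7 CPM over all filtered nuclei of the 4 SAT libraries and VAT replicate 1, and 3119 CPM in VAT replicate 2. In the selected nuclei, the immune and endothelial marker lists were lower than in the other nuclei. The immune list summed to 165 CPM in replicate 1 and 298 CPM in replicate 2 against 379 and 1507 CPM, and the endothelial list to 76.9 and 64.4 CPM against 176 and 298 CPM, although 3 of these 11 genes had been used against such nuclei. No selected nuclei of different libraries shared a barcode, and any pair of libraries shared at most 0.482% of the barcodes of the smaller library. Between the VAT libraries 1 library stood on each side, so no gene-level test was made, and selected against other nuclei is the contrast that the rule used and was not tested. Values are given for VAT replicate 1 and VAT replicate 2 side by side, with exact Poisson 95% intervals that cover counting error only.

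All 7 selecting genes had UMIs in both libraries, but in different proportions. Upk3b, a uroplakin of the mesothelial surface (GRCm39 chromosome 5, 136067350 to 136075342, plus strand), was at 1019 CPM (918 to 1128) in the selected nuclei of replicate 1 and at 650 CPM (620 to 682) in those of replicate 2. Upk1b, a tetraspanin that partners with uroplakins, was at 909 CPM and 1511 CPM, and the transcription factor Wt1 was at 761 CPM and 1102 CPM. These last genes were thus higher in replicate 2. Msln, the cell surface glycoprotein mesothelin (chromosome 17, 25967312 to 25985619, minus strand), was at 541 CPM (468 to 622) in replicate 1 and 134 CPM (121 to 149) in replicate 2. Muc16, the membrane mucin that binds mesothelin, was at 1038 and 517 CPM, and Lrrn4 was at 261 and 63.3 CPM. The transcription factor Bnc1 was at 113 and 88.9 CPM, with overlapping intervals (80.8 to 153 and 77.9 to 101 CPM). After thinning to 1000 UMIs, Msln was detected in 40.6% of the selected nuclei of replicate 1 and 11.3% of those of replicate 2, against 55.1% and 72.7% for Upk1b.

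**Figure D2:**
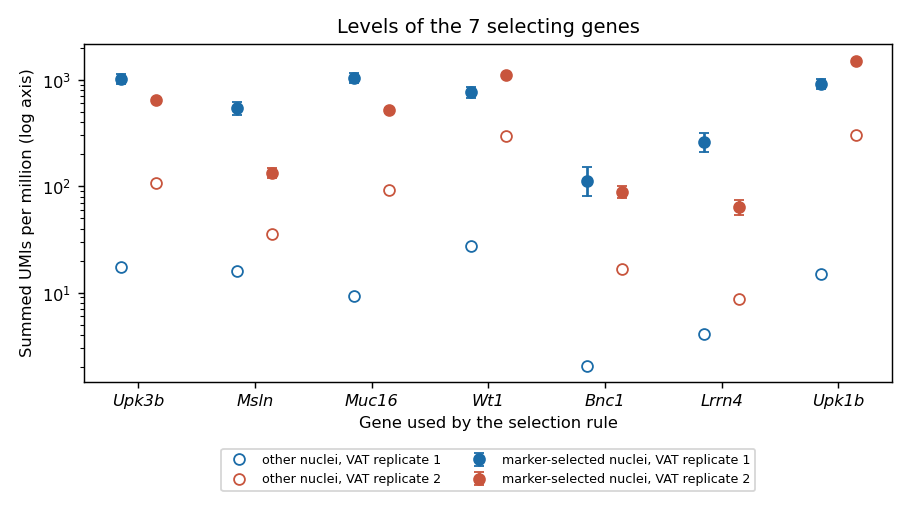
Levels of the 7 selecting genes (x axis) in CPM summed over nuclei (y axis, log scale) for the selected nuclei (filled, with exact Poisson 95% intervals) and all other filtered nuclei (open) of VAT replicate 1 (blue) and replicate 2 (red). Msln and Lrrn4 were higher in replicate 1 and Upk1b and Wt1 in replicate 2, and the open points of replicate 2 lie above those of replicate 1.

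The threshold did not separate clearly different nuclei. Exactly 4 UMIs of the selecting genes were held by 25 of the 187 nuclei in replicate 1 and by 134 of the 1097 in replicate 2, and 35 and 120 further nuclei met all other conditions with 3 UMIs. Just inside the threshold, Gpm6a, a membrane glycoprotein that was not used for selection, was at 815 CPM in replicate 1 and 423 CPM in replicate 2. Just outside it was at 1076 CPM and 380 CPM, and among nuclei with 0 UMIs of the selecting genes it was at 10.4 CPM and 39.6 CPM. The condition on other cell types removed 16 nuclei in replicate 1 and 286 in replicate 2 that had met the marker condition. In SAT, the selected nucleus at 2 months and the selected nucleus at 24 months each held exactly 4 marker UMIs from 2 genes, and they enter no description of genes.

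Beyond the selecting genes, 193 of 4588 genes (4.21%) with at least 50 CPM on average were over 2-fold higher in the selected nuclei than in the other nuclei in both VAT libraries, with 10 CPM added to each level. In replicate 1 alone 990 of the 4588 genes (21.6%) were over 2-fold higher in the selected nuclei, and in replicate 2 alone 260 (5.67%). With 50 CPM added 77 genes passed in both, and against nuclei with 0 UMIs of the selecting genes 342 did. Since the nuclei were chosen on marker genes in the same data, this is a description of the chosen nuclei. The 30 leading genes were 3.43 to 5.14 higher on the log2 scale in replicate 1 and 1.15 to 2.05 higher in replicate 2. The median over all genes compared was 0.21 in replicate 1 and 0.03 in replicate 2.

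Several of the leading genes are known components of the serosal surface and its junctions. Gpm6a (chromosome 8, 55407719 to 55513912, plus strand) was at 1260 CPM (1148 to 1381) in the selected nuclei against 26.1 CPM in the others in replicate 1, and at 694 CPM (663 to 727) against 194 CPM in replicate 2. Cldn15, a claudin of tight junctions, was at 516 against 28.9 CPM and at 267 against 57.0 CPM. The large membrane protein Pkhd1l1 was at 769 against 16.4 CPM and at 650 against 188 CPM. Together with Nkain4 and Podxl, the sialomucin of apical membranes, 5 of the 13 serosal surface and junction genes that reached 50 CPM passed in both libraries. The list's median log2 difference was 3.59 in replicate 1 and 0.94 in replicate 2.

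All 4 keratins of simple epithelia were present. Krt7 was at 239 against 5.31 CPM in replicate 1 and at 326 against 136 CPM in replicate 2, and Krt19 was at 217 against 3.67 CPM and at 208 against 86.2 CPM. Krt18 was at 71.4 and 214 CPM and Krt8 at 54.9 and 58.8 CPM in the selected nuclei of replicates 1 and 2, and these were not over 2-fold higher than the other nuclei in both libraries. The 91 nuclei of replicate 2 that met a rule for epithelial nuclei held 264 CPM of Krt7 and 180 CPM of Krt19, levels near those of the selected nuclei, while replicate 1 held 0 such nuclei. Between the selected nuclei of the VAT libraries, the counting intervals of the ratio of replicate 2 to replicate 1 included 1 for Krt8 and Krt19, whereas the ratio was 1.37 (1.09 to 1.72) for Krt7 and 2.99 (2.02 to 4.62) for Krt18.

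Of the leading genes and the signalling lists, a few are described here. Rspo1, which amplifies Wnt signals, was at 368 against 14.6 CPM in replicate 1 and at 264 against 74.8 CPM in replicate 2. Plxna4, a semaphorin receptor, was at 969 against 33.2 CPM and at 1632 against 463 CPM. Il1rapl1, a synaptic adhesion protein of the interleukin-1 receptor family, was at 1480 against 36.7 CPM and at 435 against 105 CPM. In nuclei that met a rule for fibro-adipogenic progenitors, Il1rapl1 was at 100 CPM in replicate 1 and 394 CPM in replicate 2. Rspo1 was there at 43.7 and 131 CPM, and Plxna4 at 53.5 and 497 CPM. In replicate 2 the level of Il1rapl1 in these nuclei was thus near that of the selected nuclei. Of the 8 IGF and BMP genes that reached 50 CPM, 4 passed in both libraries. They were Bmp4 (264 and 72.3 CPM in the selected nuclei of replicates 1 and 2), the BMP antagonist Nbl1 (456 and 100 CPM), Igfbp5 (1087 and 904 CPM) and Igfbp6 (1562 and 229 CPM), and of these Nbl1 and Igfbp6 were over 4-fold higher in replicate 1 than in replicate 2. Both Igfbp proteins bind insulin-like growth factors.

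Matrix and regulatory genes were represented by Col4a5 and Col4a6, chains of type IV collagen in basement membranes. Col4a5 was at 420 against 20.2 CPM in replicate 1 and at 606 against 237 CPM in replicate 2, and Col4a6 at 340 against 14.3 CPM and at 355 against 126 CPM. With Efemp1, they were the 3 genes of 20 basement membrane and matrix genes at 50 CPM that passed in both libraries. Among 8 transcription factors of mesoderm and serosa at that level, Bnc2, Gata4 and Gata6 passed. Gata4 rests on 8 UMIs (22.0 CPM) in replicate 1, near the 19.1 CPM of the immune nuclei of that library. Bnc2 was at 1082 and 1297 CPM and Gata6 at 250 and 222 CPM in the selected nuclei, so their levels hardly differed between the libraries. Myrf, a membrane-bound transcription factor, was at 335 and 349 CPM.

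For other lists the counts are given without a reading, since at a share of 4.21% over all genes few or no genes of such short lists would pass. None of 6 genes at 50 CPM for the transition from mesothelium to mesenchyme passed in both libraries, nor did any of the 9 adipogenic genes at that level. The adipogenic list had a median log2 difference of -2.67 in replicate 1 and -1.83 in replicate 2. Pparg, the regulator of fat cell differentiation, was at 135 CPM in the selected nuclei against 2572 CPM in the others in replicate 1, and at 7.91 against 147 CPM in replicate 2. Of 9 hyaluronan and lubricant genes, 0 reached 50 CPM, although Has1, a hyaluronan synthase, was at 76.9 CPM in replicate 1 and 1.88 CPM in replicate 2. In both libraries together, 2 of 7 Wnt and R-spondin genes at 50 CPM passed (Lgr5, Rspo1), 1 of 7 EGF and FGF genes (Fgf1), 1 of 5 retinoic acid genes (Aldh1a2), 0 of 11 immediate early genes and 0 of 1 cell cycle and senescence gene. The proliferation gene Mki67 was at 13.7 and 18.1 CPM and the senescence marker Cdkn2a at 0 and 2.26 CPM (0 and 6 UMIs).

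The study names its mesothelial subpopulations by Gpc6, Erbb4, Pde4d, Cd164, Slc7a2 and Areg. It used these genes to tell 2 groups of mesothelial nuclei from each other, in libraries that included young VAT. For mesothelial cells as a whole it names Krt7, Krt19 and Krt18. The contrast with other nuclei given here is a different one and does not bear on these genes as markers of subpopulations. Of these 6 genes, 2 (Gpc6, Pde4d) reached 50 CPM, and 0 of the 2 were over 2-fold higher than the other nuclei in both libraries. Gpc6, a cell surface proteoglycan, was at 176 against 221 CPM in replicate 1 and at 25.2 against 49.4 CPM in replicate 2. The phosphodiesterase gene Pde4d was at 678 against 570 CPM and at 149 against 199 CPM. Areg, a ligand of the EGF receptor, was at 0 and 1.51 CPM in the selected nuclei, from 0 and 4 UMIs, and Slc7a2 at 5.49 and 6.41 CPM. Cd164, a sialomucin, was at 41.2 against 104 CPM in replicate 1 and at 53.5 against 74.4 CPM in replicate 2. Erbb4, a receptor of neuregulins, was at 27.5 and 45.6 CPM, and it was at 95.4 CPM in the selected nuclei of replicate 2 with 0 UMIs of the ovary list and at 18.7 CPM in those with at least 2.

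The selected nuclei of the VAT libraries differed in many genes from each other. Of the 4588 genes, 230 (5.01%) were over 4-fold higher in replicate 1 and 150 (3.27%) were over 4-fold higher in replicate 2. With 50 CPM added in place of 10 CPM these counts were 102 and 68, and among nuclei with 0 UMIs of the ovary list before thinning they were 115 and 90. The median log2 difference over all genes was 0.01. The other nuclei of the libraries differed as well, and their levels are given beside several of the genes. Of the 230 genes, 153 were also over 2-fold above the other nuclei of replicate 1 and 49 lay below them. Of the 150 genes, 64 were over 2-fold above the other nuclei of replicate 2 and 14 lay below them. The minimum of 50 CPM is an average over both libraries, so a gene can pass it through 1 library alone. Animal, dissection and library cannot be told apart as the origin of these differences.

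**Figure D3:**
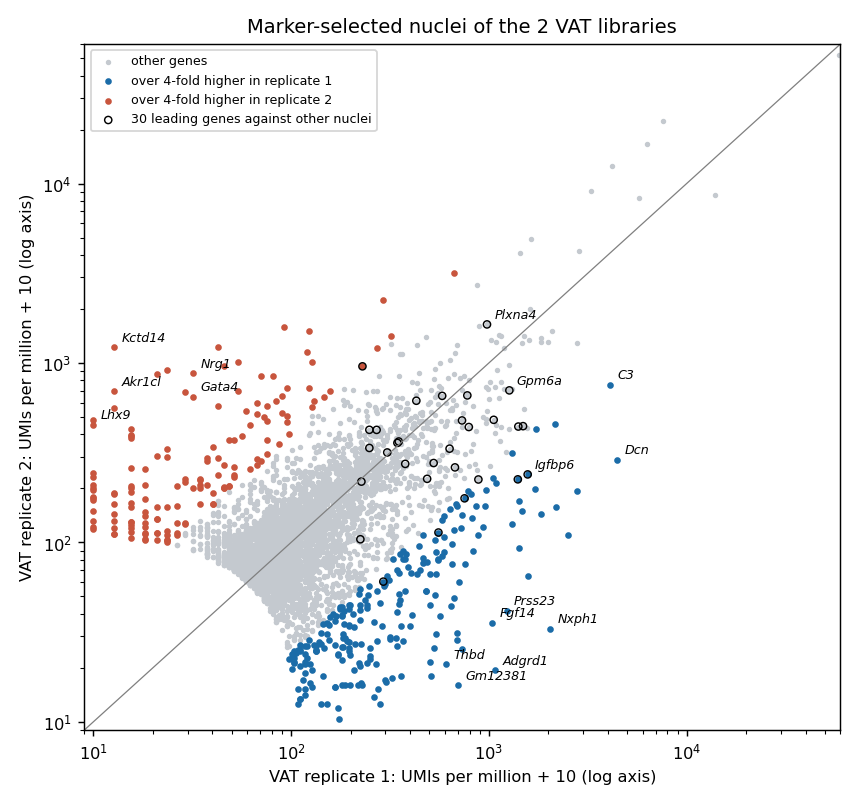
Summed level of each gene with at least 50 CPM on average in the selected nuclei of VAT replicate 1 (x axis) and replicate 2 (y axis), in CPM plus 10 on log axes. The 150 genes over 4-fold higher in replicate 2 (red) include Kctd14 and Lhx9, the 230 over 4-fold higher in replicate 1 (blue) include Nxph1 and Dcn, and black rings mark the 30 leading genes against other nuclei.

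Genes of the gonad were led by Lhx9, a LIM homeobox factor of the developing gonad (chromosome 1, 138752924 to 138776341, minus strand). It had 0 UMIs in the 187 selected nuclei of replicate 1 and 1173 UMIs, or 442 CPM (417 to 468), in those of replicate 2. Against a floor of 3 counts in replicate 1 it was 53.7-fold higher in replicate 2, and the exact counting interval of the ratio had a lower limit of 43.6. Lhx9 was detected in 29.1% of the thinned selected nuclei of replicate 2, against 3.12% of the immune nuclei of that library. Amhr2, the receptor of anti-Müllerian hormone, was at 5.49 CPM in replicate 1 (2 UMIs) and 384 CPM in replicate 2, with a wide counting interval of 19.3 to 579 for their ratio. Emx2, a homeobox factor of the urogenital tract, was at 41.2 and 223 CPM. It was also over 2-fold higher in the selected than in the other nuclei of both libraries (5.70 and 89.3 CPM in the others), and of the 6 genes of the ovary list at 50 CPM it was the 1 of which this held. Nr5a1, the steroidogenic factor, had 0 UMIs in replicate 1 and was at 81.8 CPM in replicate 2, which was 9.93-fold higher against the same floor. Of the 6 genes of the ovary list that reached 50 CPM, 4 (Amhr2, Emx2, Lhx9, Ovgp1) were over 4-fold higher in replicate 2 and 0 in replicate 1. The shares over all genes were 3.27% and 5.01%. Lhx9, Amhr2 and Emx2 were under 50 CPM in replicate 1 and passed the averaged minimum through replicate 2. The minimum thus favours this direction, and the count is a description.

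Markers of other ovarian and oviduct cells were lower in the selected than in the other nuclei of replicate 2. The rule had removed 286 nuclei with more than 1 UMI of the exclusion genes, Lhcgr and Epcam among them, and these count among the others. Cyp11a1, the first enzyme of steroid synthesis, was at 55.8 CPM in the selected nuclei and at 1552 CPM in the other nuclei of that library. Ovgp1, an oviduct glycoprotein, was at 104 against 663 CPM, and Foxl2, a factor of granulosa cells, at 6.41 against 24.9 CPM. Lhx9 and Amhr2, at 442 and 384 CPM, were by contrast higher in the selected nuclei than in the others, at 133 and 164 CPM. The summed list of 5 multiciliated cell genes was at 46.0 CPM in the selected nuclei and 528 CPM in the others. The ovary list as a whole was at 1578 CPM in the selected nuclei and 3661 CPM in the other nuclei of replicate 2, and at 184 CPM in the selected and 34.3 CPM in the other nuclei of replicate 1. In the immune nuclei, which should lack these RNAs, the list was at 952 CPM in replicate 2 and 95.5 CPM in replicate 1. These are background levels against which the selected nuclei are to be read. In replicate 2 the mesothelial markers occurred together with gonad genes, and the nuclei are called here by the rule that chose them. Which of them came from fat and which from a neighbouring organ was not tested.

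Further genes had few or no UMIs in replicate 1. Kctd14 gave 1 UMI in replicate 1 and 3229 UMIs in replicate 2, or 2.75 and 1217 CPM, and it was detected in 48.5% of the thinned selected nuclei of replicate 2 against 6.46% of its immune nuclei. It was at 653 CPM in the other nuclei of replicate 2, so it was under 2-fold higher in the selected nuclei. Hsd17b2, which inactivates estradiol and testosterone, had 0 UMIs in replicate 1 and was at 469 CPM in replicate 2. Against a floor of 3 counts it was 56.9-fold higher, and the exact counting interval of the ratio had a lower limit of 46.2. Akr1cl, of the aldo-keto reductase family, was at 2.75 and 688 CPM, but it was also at 702 CPM in the other nuclei of replicate 2. Grip1, a scaffold protein, was at 33.0 and 1213 CPM, with 470 CPM in the other nuclei of replicate 2, and Cpe, which trims peptide hormones, at 13.7 and 904 CPM, with 434 CPM in those nuclei.

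The lists of signals and mesoderm factors were counted in both directions, beside shares over all genes of 3.27% higher in replicate 2 and 5.01% higher in replicate 1. With 7 or 8 genes a list, a count of 1 is not a result about the list. Of 7 Wnt and R-spondin genes at 50 CPM, 2 (Lgr5, Lgr6) were over 4-fold higher in replicate 2 and 1 (Sfrp2, 335 and 16.6 CPM) in replicate 1. Of 7 EGF and FGF genes, 1 (Nrg1) was higher in replicate 2 and 2 in replicate 1 (Fgf1, 722 and 132 CPM, and Fgf9, 214 and 26.8 CPM). Of 8 IGF and BMP genes, 0 were higher in replicate 2 and 4 in replicate 1 (Chrdl1, 242 and 15.8 CPM, Igfbp4, 640 and 88.2 CPM, Igfbp6 and Nbl1). Of 8 mesoderm and serosal factors, 1 (Gata4) was higher in replicate 2 and 1 (Osr1, 217 and 6.41 CPM) in replicate 1. Lgr5, a receptor for R-spondins that marks epithelial progenitors, was at 35.7 CPM in replicate 1 and 947 CPM in replicate 2, a ratio of 26.5 (15.5 to 49.9). Its relative Lgr6 was at 5.49 and 387 CPM. The growth factor gene Nrg1, a ligand of ErbB receptors, was at 22.0 and 869 CPM. The ligand gene Wnt6 had 0 UMIs in replicate 1 and was at 199 CPM in replicate 2. Gata4, a zinc finger factor of the coelomic lining, was at 22.0 and 638 CPM, whereas its relative Gata6 was at 250 and 222 CPM. Aldh1a2, which makes retinoic acid, was at 85.1 and 498 CPM. Cdh2, or N-cadherin, had 0 UMIs in replicate 1 and was at 191 CPM in replicate 2, and Cdh1, or E-cadherin, had 0 UMIs and was at 65.2 CPM.

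The differences in favour of replicate 1 were led by Nxph1, a secreted ligand of neurexins (chromosome 6, 8948431 to 9249616, plus strand). It was at 2040 CPM (1896 to 2192) in replicate 1 and 23.0 CPM (17.6 to 29.5) in replicate 2, and at 29.7 CPM in the other nuclei of replicate 1. It was detected in 50.3% and 1.46% of the thinned selected nuclei. Fmo2, a flavin monooxygenase, was at 1562 and 54.6 CPM and at 50.3 CPM in the other nuclei of replicate 1. The adhesion receptor gene Adgrd1 was at 1065 and 9.42 CPM, with 123 CPM in the other nuclei of replicate 1, and the zinc transporter gene Slc39a8 was at 719 and 15.4 CPM, with 11.8 CPM in those nuclei. In nuclei of replicate 1 that met a rule for fibro-adipogenic progenitors, Adgrd1 was at 700 CPM. There Slc39a8 was at 21.1, Nxph1 at 78.4 and Fmo2 at 143 CPM. Slc7a10, an amino acid transporter of fat cells, also appeared among the 20 genes with the largest difference, at 266 and 5.28 CPM, but it was at 1817 CPM in the other nuclei of replicate 1, where fat cell markers were high.

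Some innate defence genes were higher in replicate 1. C3, the central complement component, was at 4105 CPM in replicate 1 and 748 CPM in replicate 2, a ratio of 5.49 (5.13 to 5.87), and at 312 and 273 CPM in the other nuclei. The antiprotease Slpi was at 168 and 33.9 CPM and the cytokine Il33 at 157 and 17.0 CPM. These made 3 of the 6 innate defence and chemokine genes at 50 CPM over 4-fold higher in replicate 1, with 0 in replicate 2. The shares over all genes were 5.01% and 3.27%. The complement gene C1s1 was at 741 and 219 CPM and C4b at 549 and 240 CPM, which did not pass. Of the same 6 genes, C3, Slpi and C1s1 were over 2-fold above the other nuclei in both libraries.

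Of the 20 basement membrane and matrix genes at 50 CPM, 8 were over 4-fold higher in replicate 1 and 0 in replicate 2. The shares over all genes were 5.01% and 3.27%. The others of the 20, Col4a5 and Col4a6 among them, did not pass. The list summed to 7727 and 3267 CPM in the selected nuclei and to 5190 and 2222 CPM in the other nuclei. A difference in the same direction was thus present outside the selected nuclei. The proteoglycan Dcn was at 4437 CPM in replicate 1 and 278 CPM in replicate 2. The collagen Col3a1 was at 1299 and 117 CPM and Col1a1 at 305 and 19.6 CPM. In the other nuclei Dcn was at 1107 CPM in replicate 1 and 146 CPM in replicate 2, and in the immune nuclei at 654 and 58.9 CPM. It was at 6406 CPM in the 767 nuclei of replicate 1 that met a rule for fibro-adipogenic progenitors (FAPs). In that library it was detected in 29.6% of 98 thinned immune nuclei against 92.5% of the selected nuclei. The progenitor gene Pi16, by contrast, was at 98.9 CPM in the selected nuclei against 1310 CPM in FAP nuclei, and Dpp4 was at 1038 CPM against 403 CPM. The FAP list of 7 genes summed to 6132 CPM in the selected nuclei of replicate 1 and 1215 CPM in those of replicate 2, and none of the 7 genes was at 0 in either. Its part in the difference was not tested.

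Of 11 immediate early genes at 50 CPM, 4 (Atf3, Dusp1, Fos, Klf2) were over 4-fold higher in replicate 1 and 0 in replicate 2. The shares over all genes were 5.01% and 3.27%. Dusp1, a phosphatase induced by stress, was at 351 and 7.91 CPM, and Klf2 was at 571 and 74.2 CPM. In the other nuclei, Dusp1 was at 127 CPM in replicate 1 and 26.4 CPM in replicate 2, so that a difference in the same direction was present outside the selected nuclei. Beside the same shares over all genes, 4 of 9 adipogenic genes at 50 CPM (Cd36, Fabp4, Plin4, Pparg) were over 4-fold higher in replicate 1. In replicate 2, 1 of the 9 was (Zfp423, 16.5 and 150 CPM). Plin4, which coats lipid droplets, was at 288 and 7.16 CPM. The adipocyte list summed to 744 and 82.1 CPM in the selected nuclei and to 7149 and 578 CPM in the others.

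Nuclei within each library varied too. After thinning to 1000 UMIs, the ratio of variance to mean over the selected nuclei had a median of 1.22 over 3868 genes found in at least 5% of the nuclei of replicate 1, and of 1.21 over 4011 genes in replicate 2. The 10 most variable genes in replicate 1 were mt-Cytb, Malat1, Rn18s-rs5, mt-Rnr2, Nxph1, Dcn, mt-Co1, Rbfox1, mt-Nd1 and Acvr2a, and those in replicate 2 were Rn18s-rs5, C3, mt-Cytb, mt-Rnr2, Malat1, mt-Co1, Rbfox1, Nrg1, mt-Rnr1 and Sntg1. Mitochondrial, ribosomal and Malat1 RNA thus took up most places in both. Of the remaining genes, Nxph1 had a ratio of 6.03 in replicate 1 and up to 18 UMIs in a thinned nucleus, while it was detected in 50.3% of the nuclei. C3 had a ratio of 8.10 in replicate 2, with up to 31 UMIs in a thinned nucleus and detection in 22.2%.

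The ovary list divided the selected nuclei of replicate 2. After thinning, 306 of the 1097 nuclei (27.9%) held 0 UMIs of its 12 genes, 323 (29.4%) held 1 UMI and 468 (42.7%) held at least 2. In replicate 1 the corresponding numbers were 161 (86.1%), 19 (10.2%) and 7 (3.74%). Immune nuclei with at least 2 UMIs of the list made up 12.2% in replicate 2 and 3.06% in replicate 1. Those with at least 1 UMI made up 33.0% and 10.2%, so 1 UMI can be background. The 323 nuclei at 1 UMI lie at the border, and with so few UMIs a nucleus at 0 can still express these genes, so the split is a range and not a pair of cell types. Nuclei at 0 and at 2 or more had medians of 1961.5 and 2101.5 UMIs, 7.32% and 8.71% mitochondrial UMIs, and 8 UMIs of the selecting genes each.

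Between these ends, 117 of 4524 genes (2.59%) were over 2-fold higher in the nuclei without ovary list UMIs and 6 (0.133%) were over 2-fold higher in the nuclei with at least 2, the ovary list and selecting genes left out. Fmo2 was at 175 CPM in the nuclei at 0 and 8.49 CPM in the nuclei at 2 or more. C3 was at 1673 and 391 CPM, and Slpi at 98.3 and 8.49 CPM. Of the 4 innate defence genes at 50 CPM in this comparison, 3 (C3, C4b, Slpi) were over 2-fold higher in the nuclei without ovary list UMIs and 0 in the others. Of 3 FAP list genes in this comparison, 2 (Dcn, 628 and 120 CPM, and Dpp4) were also over 2-fold higher in the nuclei at 0, and so were 2 of 13 matrix genes (Col1a2, Col3a1). The FAP list summed to 1662 CPM in the nuclei at 0 and 1011 CPM in the nuclei at 2 or more, and its part in the difference was not tested. The growth factor gene Fgf1 was at 308 and 48.4 CPM, and the transporter gene Abcb1b at 436 and 62.8 CPM. In the selected nuclei of replicate 1, Fmo2 was at 1562, Fgf1 at 722 and Abcb1b at 772 CPM.

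Genes over 4-fold higher in replicate 2 than in replicate 1 were also read along this split. Kctd14 was at 864 CPM in the nuclei at 0 and 1349 CPM in the nuclei at 2 or more, Hsd17b2 at 383 and 555 CPM, and Gata4 at 533 and 678 CPM. Nrg1 was at 560 and 1075 CPM, and Plppr4, one of the 6 genes over 2-fold higher at 2 or more, was at 64.6 and 158 CPM. Of the 30 leading genes against other nuclei, 7 (Bicd1, Cdh11, Flrt2, Igfbp6, Il1rapl1, Pals2, Tmtc1) were over 2-fold higher in the nuclei at 0, such as Il1rapl1 at 820 and 256 CPM and Cdh11, a cadherin of mesenchyme, at 289 and 107 CPM, and 0 were over 2-fold higher in the nuclei at 2 or more. Among the others, Rspo1 was at 323 and 230 CPM and Krt19 at 213 and 203 CPM. Lhx9 and Amhr2, which belong to the list, were at 126 and 109 CPM in the nuclei at 0, since nuclei were thinned for the split but not for the levels.

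**Figure D4:**
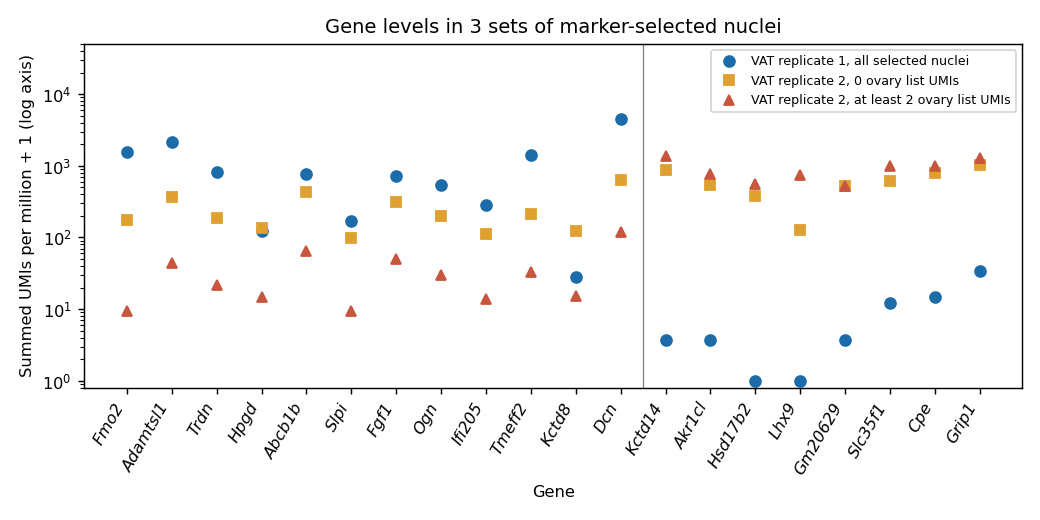
Levels in CPM plus 1 (y axis, log scale) of 12 genes that differ most between nuclei of VAT replicate 2 with 0 and with at least 2 UMIs of the ovary list (left of the line) and of 8 genes highest in replicate 2 over replicate 1 (right). Orange squares lie between blue circles and red triangles for most genes on the left, such as Fmo2 at 175 against 1562 and 8.49 CPM, and near the red triangles on the right, except for Lhx9.

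The genes of either library were also counted nucleus by nucleus. The 20 genes with the largest difference in favour of replicate 1 summed to 16055 CPM in its selected nuclei and 385 CPM in those of replicate 2. In replicate 1 the 20 genes summed to 4454 CPM in the other nuclei and to 6932 CPM in the FAP nuclei. After thinning, 184 of 187 selected nuclei of replicate 1 held at least 4 UMIs of these genes and 1 held at most 1 UMI. All 7 nuclei of replicate 1 with at least 2 UMIs of the ovary list were among the 184, as were nearly all selected nuclei of that library. In replicate 2, 34 of 1097 nuclei (3.10%) held at least 4 UMIs, 65 held 2 or 3, and 998 (91.0%) held at most 1. Of the 34 nuclei, 24 held 0 UMIs of the ovary list and 5 held at least 2. These 20 genes were chosen on the same nuclei for being high in replicate 1 relative to replicate 2. That choice fixes that most nuclei of replicate 1 held many of their UMIs and that few nuclei of replicate 2 did.

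**Figure D5:**
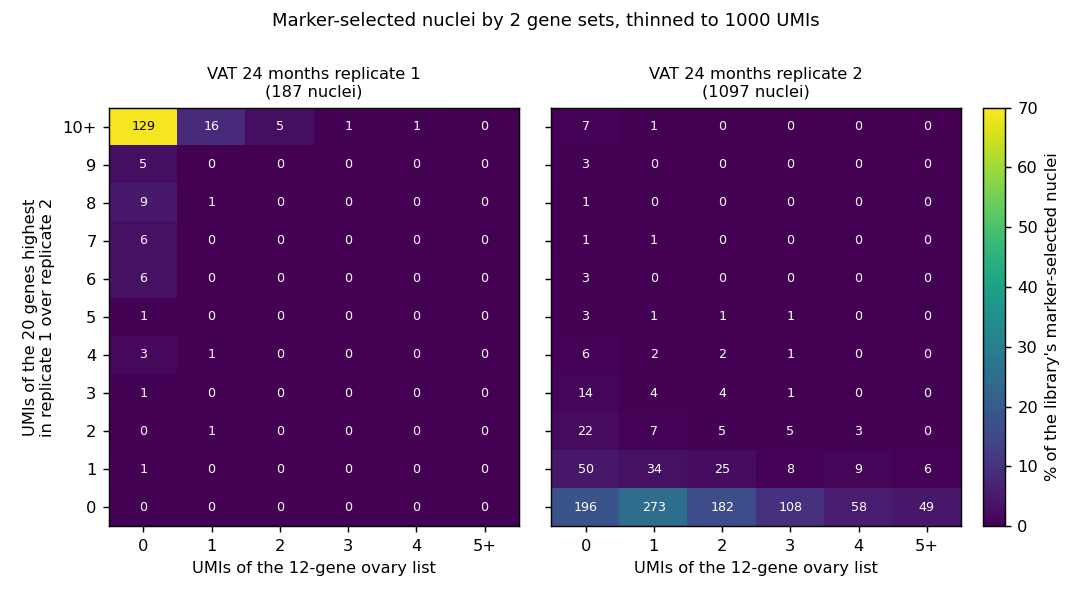
Number of selected nuclei of VAT replicate 1 (left) and replicate 2 (right) by their UMIs of the 12-gene ovary list (x axis) and of the 20 genes highest in replicate 1 over replicate 2 (y axis), each nucleus thinned to 1000 UMIs, with colour for the share of the library's selected nuclei in %. The 187 nuclei of replicate 1 gather at the upper left, and 998 of the 1097 nuclei of replicate 2 lie in the lowest 2 rows. The 20 genes were chosen on the same nuclei, which fixes the separation along the y axis.

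Across 4582 genes with at least 50 CPM on average, the ovary list left out, the log2 levels of the selected nuclei of the VAT libraries correlated with a Pearson r of 0.453 (Spearman rho 0.419). The r with replicate 1 was 0.566 for the nuclei of replicate 2 without ovary list UMIs and 0.374 for those with at least 2. The nuclei at the ends of the split correlated with an r of 0.917. Genes are not independent replicates, and the sets of replicate 2 share a library and its background, so these are descriptions.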

How the data were processed

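Whole-number UMI counts for each gene and barcode were deposited without normalization, and per the study's methods the authors obtained them with a Singleron microfluidic kit, Illumina sequencing and Celescope on GRCm39. The version of Celescope and the annotation release are not given in the sources used here. Gene positions came from GENCODE M39 on GRCm39, which held 56236 of the 56980 listed genes (98.7%).

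The members and gene lists were chosen with earlier results of these data known. Counts of nuclei were compared between libraries by exact permutation tests, two-sided, and nuclei are not replicates. By the study's text both depots were taken from 2 mice of each age, which makes the old SAT and VAT libraries samples of the same animals, but neither it nor the labels say whether equal replicate numbers mark the same mouse. The depot test was therefore made unpaired and also paired by number. Its exact permutation p was 0.333 unpaired and 0.5 paired. Both are the smallest possible with these libraries, so they do not measure the spread between them. The planned edgeR tests on summed counts were not run, because each SAT library held under 10 selected nuclei, so that neither contrast had 2 libraries per group. Levels are summed UMIs scaled to a total of 1000000 (CPM). Log2 differences use 10 CPM added to each level, genes with at least 50 CPM on average over the VAT libraries, and leave out the 13 genes of the rule. Folds against 0 counts use a floor of 3 counts per library. Thinning drew 1000 UMIs per nucleus without replacement (seed 1).

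Genes were named by a fixed rule: the 30 with the largest average log2 ratio over other nuclei and above 1 in both VAT libraries, the 10 most variable per VAT library, and members of the lists. The comparison between the VAT libraries and the split by ovary genes, with the 20 leading genes of each, were added after the data had been seen. Scrublet ran in scanpy 1.11.5, tests in scipy 1.17.1 under Python 3.11.15 with numpy 2.4.6, tables in pandas 2.3.3, TMM factors in edgeR 4.0.16 (R 4.3.3), and plots in matplotlib 3.10.9.

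1 gene of the innate defence list is not reported here.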

Additional observations from a re-analysis of the deposited data

Results flagged for a closer look

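Barcodes outside the quality filters also met the marker rule, in VAT and not in SAT. In VAT replicate 1, 135 of 3494 barcodes that failed a filter (3.86%) met it, and in VAT replicate 2, 218 of 6271 (3.48%), against 0 in each of the 4 SAT libraries. The filters that removed them differed. In replicate 1, 133 of the 135 had too few UMIs or genes and 3 were over the mitochondrial limit, with a median of 789 UMIs, whereas in replicate 2, 158 of the 218 were over the mitochondrial limit and 62 had too few UMIs or genes, with a median mitochondrial share of 16.2%. The number of selected nuclei in replicate 2 therefore depends on that limit.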

How the results depend on the processing

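The difference in share between depots at 24 months stayed positive, with all VAT libraries above all SAT libraries, under every alternative run. It ranged from 6.39 percentage points with a mitochondrial limit of 5% to 15.9 points without the exclusion of other cell types, against 12.9 in the main analysis, and from 4.20 to 21.6 points when 1 library was left out. The exact permutation p was 0.333, the smallest possible, in each alternative with all 4 libraries and no block, which says nothing about stability, and no test was made with 1 library left out. The difference with age in SAT was 0.0092 points and lay between -0.0109 and 0.0293 when 1 library was left out, so its sign rests on 1 nucleus. A replicate block pairing the libraries by number gave the same 12.9 and 0.0092 points with exact permutation p of 0.5 (the smallest that 2 pairs allow) and 1.0, and changed no call. For genes, no paired or unpaired fit of the contrasts of age and depot was possible because SAT held too few selected nuclei. The planned tests with edgeR, with their alternatives, were not run. Selected against other nuclei was not tested, since the rule chose the nuclei. Counts of genes over a fold depend on the amount added to each level. With 50 CPM in place of 10 CPM, 77 genes in place of 193 were over 2-fold above other nuclei in both VAT libraries, and 68 in place of 150 and 102 in place of 230 were over 4-fold higher in replicate 2 and in replicate 1. Against nuclei with 0 UMIs of the selecting genes, 342 were over 2-fold higher. Among nuclei with 0 UMIs of the ovary list before thinning, 90 were over 4-fold higher in replicate 2 and 115 in replicate 1. Over all selected nuclei, TMM factors gave 158 in place of 150 and 214 in place of 230. Scrublet marked 0.0519 to 0.562% of nuclei as doublets, under 0.5% in 5 of 6 libraries, so that doublets were in effect not removed by it. In replicate 1, 50 CPM is about 18 UMIs, which limits what can be said of lower genes. The alternatives for gene counts were chosen after seeing the data.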
